A study of Mus musculus with 27 samples.

Results

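DNA replication and mitosis were followed in the mouse intestine through 48 genes, taken by gene name from the table of all 55401 annotated genes. All 48 had 1 row each. They comprise 26 replication genes, namely the helicase and licensing factors, the polymerases and their clamp, the enzymes of nucleotide supply and the cyclins of S phase, and 22 genes of mitotic entry, spindle, kinetochore and mitotic exit. The table holds 27 RNA-seq libraries in 9 groups of 3, all from intestine of wild-type male C57BL/6 mice aged 6 to 8 weeks. The irradiated groups received 15 Gy or 6 Gy of gamma rays from a 60Co source at 72 R/min. CBLB502, an agonist of Toll-like receptor 5, was given intraperitoneally at 0.2 mg/kg, and for the 15 Gy group this was 0.5 h before exposure.

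The groups are 15 Gy with CBLB502 at 24 h, 15 Gy at 6 h, at 24 h and at 3 d, 6 Gy with CBLB502 at 24 h, 6 Gy at 6 h and at 24 h, CBLB502 alone at 24 h, and control mice labelled as having no treatment. The design text speaks of 7 groups of 10 mice and of a PBS group, whereas the labels hold 9 groups and no PBS group. Whether the 3 libraries of a group came from 3 animals is not labelled, and p-values below measure only the spread between libraries, which may be technical. The labels also do not say which stretch of the intestine was taken, or whether mucosa was separated from muscle.

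Before a cell divides it copies its genome once. The MCM2-7 ring is loaded onto origins by CDC6 and CDT1, opened into a working helicase with the GINS complex, and followed by polymerases that are held to DNA by the sliding clamp PCNA. Cyclin B with CDK1, PLK1 and the Aurora kinases then drive entry into mitosis, the spindle checkpoint kinases hold the cell until each chromosome is attached, and CDC20 and UBE2C serve the ubiquitin ligase that ends mitosis. In the intestine these genes are used mainly by the dividing cells at the base of the crypts, which supply the non-dividing cells of the villus and are sensitive to ionising radiation.

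The promoters of 6 members are printed here because these genes carry the contrasts described below. Mcm5, Uhrf1, Plk1 and Ube2c were high at 24 h after 6 Gy, and Nusap1 and Cenpm had a separate maximum at 6 h after 6 Gy. Each sequence is the RefSeq window (GRCm38.p6) from 250 bases before to 50 bases after a transcription start, written 5′ to 3′ along the gene. Capitals mark 3 kinds of short word on either strand. The first is CCAAT, the letter core of the box bound by the factor NF-Y. The second is TTTGAA, the common form of the cell cycle homology region (CHR) known from mitotic promoters, together with its rarer form TTCGAA. The third is the E2F-type word TTTNNCGC, in which N is any base. In the deposited table, which has GRCm38 positions, Mcm5 (ENSMUSG00000005410) is on chromosome 8 from 75109569 to 75128439, Plk1 (ENSMUSG00000030867) on chromosome 7 from 122159439 to 122169873 and Ube2c (ENSMUSG00000001403) on chromosome 2 from 164769898 to 164778822. Uhrf1 (ENSMUSG00000001228) is on chromosome 17 from 56303321 to 56323486, Nusap1 (ENSMUSG00000027306) on chromosome 2 from 119618298 to 119650160, and Cenpm (ENSMUSG00000068101) on chromosome 15 from 82233779 to 82244748. The windows are chr8:75109259-75109558 (plus strand), chr17:56303087-56303386 (plus), chr7:122159185-122159484 (plus), chr2:164769679-164769978 (plus), chr2:119618048-119618347 (plus) and chr15:82244287-82244586 (minus).
Mcm5: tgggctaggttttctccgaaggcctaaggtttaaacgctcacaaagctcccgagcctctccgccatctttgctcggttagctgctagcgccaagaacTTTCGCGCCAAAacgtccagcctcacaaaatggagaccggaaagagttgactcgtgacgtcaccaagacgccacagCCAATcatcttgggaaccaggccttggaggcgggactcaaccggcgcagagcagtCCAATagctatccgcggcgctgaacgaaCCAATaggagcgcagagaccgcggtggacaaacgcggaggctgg
Uhrf1: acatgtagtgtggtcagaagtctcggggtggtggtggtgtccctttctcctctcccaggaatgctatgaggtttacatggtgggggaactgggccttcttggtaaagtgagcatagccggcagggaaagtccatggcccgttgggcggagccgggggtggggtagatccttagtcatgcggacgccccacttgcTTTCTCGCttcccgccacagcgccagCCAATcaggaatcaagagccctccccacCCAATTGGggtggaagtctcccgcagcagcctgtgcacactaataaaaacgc
Plk1: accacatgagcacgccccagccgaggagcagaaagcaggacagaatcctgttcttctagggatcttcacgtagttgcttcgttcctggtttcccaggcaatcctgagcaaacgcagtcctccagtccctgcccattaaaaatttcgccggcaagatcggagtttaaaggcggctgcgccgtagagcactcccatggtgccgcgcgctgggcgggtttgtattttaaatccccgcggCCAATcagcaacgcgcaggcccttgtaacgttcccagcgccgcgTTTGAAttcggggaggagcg
Ube2c: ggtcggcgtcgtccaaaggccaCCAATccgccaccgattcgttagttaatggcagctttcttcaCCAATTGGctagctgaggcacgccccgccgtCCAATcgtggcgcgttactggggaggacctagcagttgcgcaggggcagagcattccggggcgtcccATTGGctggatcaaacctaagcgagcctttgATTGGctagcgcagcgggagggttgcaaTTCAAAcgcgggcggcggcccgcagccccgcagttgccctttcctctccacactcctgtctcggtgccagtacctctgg
Nusap1: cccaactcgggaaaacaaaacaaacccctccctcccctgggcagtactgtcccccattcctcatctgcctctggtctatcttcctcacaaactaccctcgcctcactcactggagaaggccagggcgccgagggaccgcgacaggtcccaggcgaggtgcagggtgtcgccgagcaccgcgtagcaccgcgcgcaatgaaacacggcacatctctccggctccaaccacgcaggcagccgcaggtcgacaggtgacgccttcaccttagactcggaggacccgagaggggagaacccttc
Cenpm: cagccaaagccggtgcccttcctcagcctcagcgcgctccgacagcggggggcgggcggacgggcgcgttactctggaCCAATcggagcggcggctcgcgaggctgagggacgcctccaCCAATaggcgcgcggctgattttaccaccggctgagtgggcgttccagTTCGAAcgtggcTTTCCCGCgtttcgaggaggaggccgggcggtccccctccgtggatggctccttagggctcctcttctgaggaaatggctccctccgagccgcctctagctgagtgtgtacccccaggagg

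A RefSeq window was found for 40 of the 48 members. Among the 19 mitosis windows, 17 held CCAAT (89.5%) and 15 held a CHR word (78.9%). Of all 27025 RefSeq promoter windows of 300 bases, with 1 window taken per gene symbol, 37.9% held CCAAT and 19.4% held a CHR word. The rule of choice differed. For all genes it was the first window listed, and for members the one starting nearest the gene's 5′ end in the deposited table. Among the 21 replication windows, 13 held CCAAT (61.9%), 3 a CHR word (14.3%) and 9 the E2F-type word (42.9%). The E2F-type word was in 2 of the 19 mitosis windows and in 5.27% of all windows. In the windows printed above, Plk1 and Ube2c held CCAAT and a CHR word, Mcm5 and Uhrf1 held CCAAT and the E2F-type word, Cenpm held all 3 kinds, and Nusap1 held none of these letters. These matches describe the letters of a window and say nothing on which factor was bound there.

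The 6 libraries taken 24 h after 6 Gy, with and without CBLB502, held 57438640 to 68539356 counts, and the other 21 held 60574310 to 87083059. Genes that define intestinal epithelium were abundant in every library, as villin (Vil1) lay between 2286 and 4861 CPM and Cdh17, an intestinal cadherin, between 1369 and 3550 CPM over all 27 libraries. CPM are the usual library-size-scaled counts, here after TMM scaling, which sets libraries to a common scale from the bulk of their genes. Of the 14 p53 target genes listed as context, 7 to 9 were called higher than control in each of the 7 irradiated groups and 0 with CBLB502 alone. In 5 of those 7 groups 1 or 2 of the 14 were called lower. Ccng1, the cyclin G1 gene, stood at 121, 103 and 102 CPM at 24 h after 15 Gy against 19.8, 22.01 and 17.00 CPM in control. Mdm2 and Trp53inp1, of the same list, were called in no comparison with control, and Cdkn1a was never called higher than control. The 6 libraries of 6 Gy at 24 h also carried transcripts of exocrine pancreas, and all 16 listed pancreatic genes were called higher than control in both of these groups. Their sum was 84.1 to 7990 CPM in 6 Gy libraries and 254 to 2315 CPM in 6 Gy libraries with CBLB502, against 11.0 to 13.4 CPM in control. Tissue make-up, any processing batch and the 6 Gy dose cannot be told apart for these 6 libraries.

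The members were expressed at low levels. Over all 27 libraries 35 of the 48 had a mean below 1 FPKM (fragments per kilobase of transcript, scaled to depth) and 13 were at or above 1. Pcna was the highest at 15.8 FPKM, and the median of the 48 means was 0.450 FPKM. Even so, 40 members had counts in every library, and all 48 passed the filter on low counts and were tested among 20117 genes. In bulk tissue, fewer dividing cells and less of these transcripts in each dividing cell cannot be told apart.

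Most members had their highest mean 24 h after 6 Gy. The highest group mean in CPM belonged to 6 Gy with CBLB502 or 6 Gy at 24 h for 32 of the 48 members, which are 19 of the 22 mitosis genes and 13 of the 26 replication genes. For 29 members these 2 groups were the top 2. The lowest mean was in 15 Gy with CBLB502 or 15 Gy at 24 h for 27 members, which are 17 mitosis genes and 10 replication genes. It was in 15 Gy at 24 h for 18 members (9 mitosis, 9 replication) and in 15 Gy with CBLB502 for 9 (8 mitosis, 1 replication). CBLB502 alone was lowest for 9 members, 2 mitosis and 7 replication genes. Mcm2 and Pcna had their highest mean in 15 Gy with CBLB502. No member had its highest mean in control. These are orders of means, given with no test and with no share over all genes beside them.

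Summed over the 22 mitosis genes, the level was 37.6, 15.6 and 30.1 FPKM in 6 Gy libraries with CBLB502 and 28.3, 9.97 and 21.4 FPKM in 6 Gy libraries at 24 h, against 5.26, 4.47 and 7.22 FPKM in control. It was 3.81, 3.78 and 4.54 FPKM in 15 Gy libraries with CBLB502 and 2.96, 4.18 and 4.48 FPKM in 15 Gy libraries at 24 h. All 6 libraries of 6 Gy at 24 h thus lay above all control libraries. So did those of 6 Gy at 6 h, with mitosis sums of 19.6, 16.9 and 15.4 FPKM. Cenpm and Nusap1 had their highest means in that group. A score weighing the 22 genes alike was also taken, as log2(CPM + 0.1) minus the gene's mean over all libraries, averaged over genes. It overlapped control at 6 Gy 6 h, with 1.33, -0.385 and 0.240 against -0.499, -0.793 and 0.0105 in control. Replicate 2 of 6 Gy at 24 h, at -0.187, also lay inside the control range of this score. The sums were 9.76, 6.38 and 6.33 FPKM at 15 Gy 6 h and 5.01, 8.78 and 11.6 FPKM at 15 Gy 3 d. With CBLB502 alone they were 6.89, 5.80 and 4.85 FPKM. Of the 6 libraries of 15 Gy at 24 h, 4 lay below the lowest control library and the other two were just above it. The 26 replication genes summed to 74.7, 49.1 and 63.8 FPKM in 6 Gy libraries with CBLB502 and 64.5, 42.1 and 60.9 FPKM in 6 Gy libraries at 24 h, against 24.7, 23.0 and 23.5 FPKM in control. They summed to 38.6, 38.4 and 31.7 FPKM in 15 Gy libraries with CBLB502, all above control. At 15 Gy 24 h the sums were 25.9, 33.9 and 20.3 FPKM. Pcna made up much of the control mean, which was 23.7 FPKM with it and 13.4 FPKM without it. Without Pcna the means were 38.2 FPKM with CBLB502 and 6 Gy, and 32.2 FPKM with 6 Gy at 24 h. The FPKM scale as a whole was also shifted upwards at 6 Gy 24 h. On log2(FPKM + 0.1) the median of all 20117 genes was 0.54 above control at 6 Gy 24 h, and on the count scale after TMM it was 0.17 above. The tests below use counts.

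**Figure D1:**
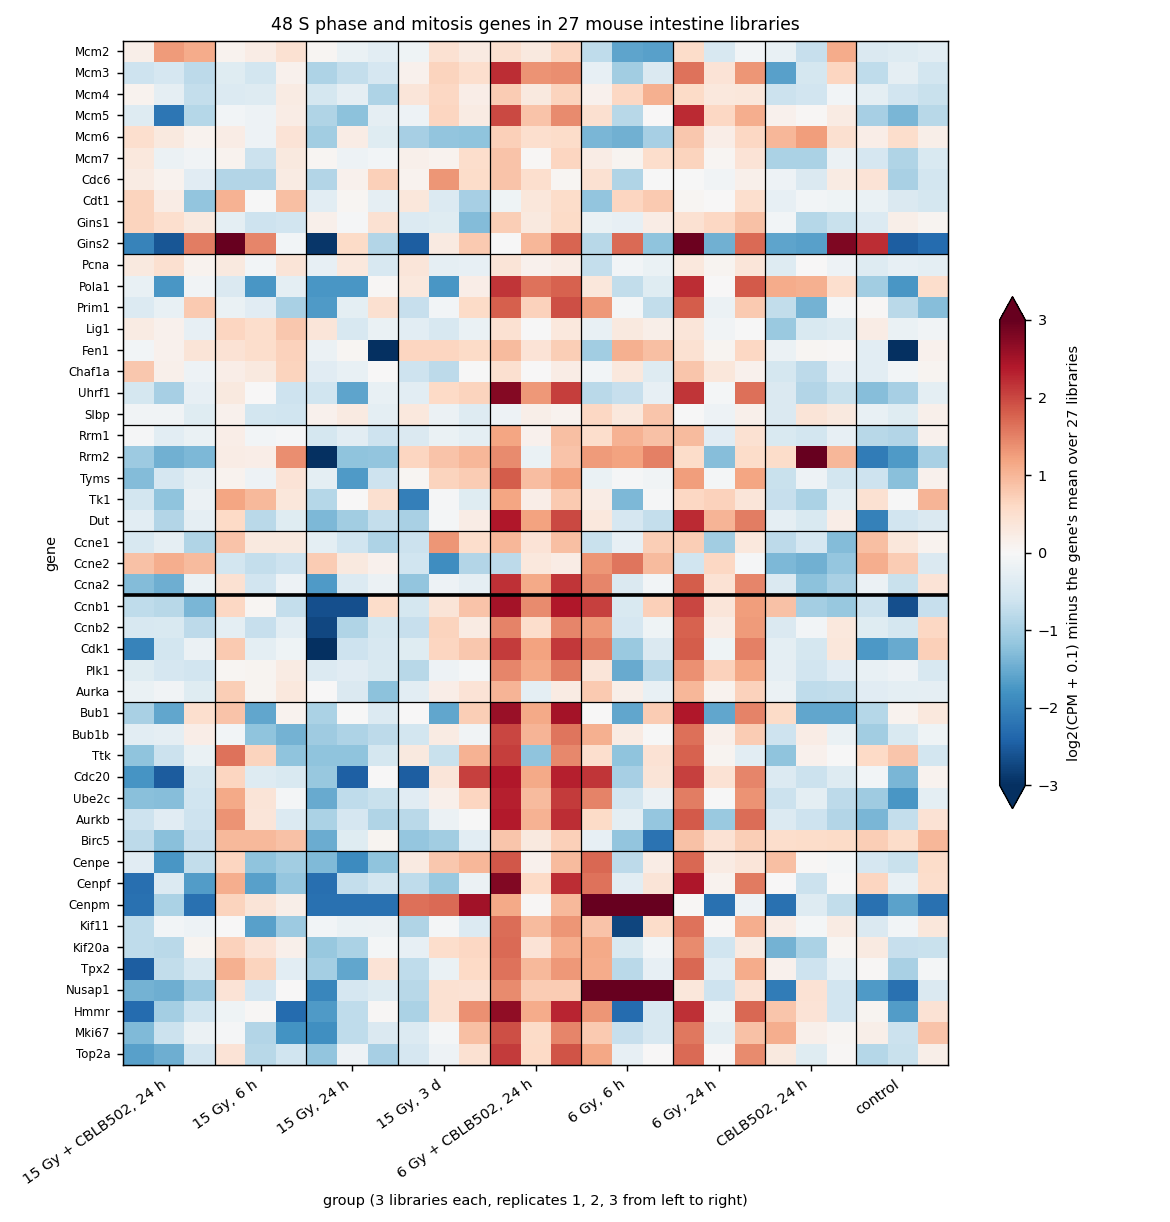
Each row is 1 of the 48 genes and each column 1 of the 27 libraries; colour gives log2(CPM + 0.1) minus the gene's mean, from blue (low) to red (high). Thin lines separate groups and gene classes, and the thick line parts 26 replication genes from 22 mitosis genes. The 6 libraries of 6 Gy at 24 h are red in most rows, with replicate 2 of each group paler, and Cenpm and Nusap1 are red at 6 Gy 6 h.

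A gene is called here when its adjusted p from the edgeR quasi-likelihood test, over all genes tested, is below 0.05. With CBLB502 and 6 Gy at 24 h, against control, 19 of the 48 members were called higher and 0 lower. Of all genes tested, 11.2% were called higher and 11.0% lower. With 6 Gy alone at 24 h, 12 members were called higher and 0 lower, against 9.0% higher and 9.66% lower among all genes. All 12 are among the 19. The median log2 fold change of the members was 1.52 with CBLB502 and 1.26 without, against 0.18 and 0.17 over all genes tested. In 31 members with CBLB502 and in 17 without, all 3 libraries lay above all 3 of control, where 25.5% and 21.4% of all genes did so. Both comparisons use the same 3 control libraries.

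In the helicase and licensing class, 4 of 10 genes were called higher in both groups: Mcm3, Mcm4, Mcm5 and Mcm7, all subunits of the MCM2-7 ring. Mcm5 stood at 5.44, 2.48 and 3.71 CPM with CBLB502 and 6 Gy, and at 6.62, 2.08 and 2.92 CPM with 6 Gy alone, against 0.606, 0.445 and 0.697 CPM in control. All 6 irradiated libraries were above the 3 control libraries. Its log2 fold change was 2.73 ± 0.51, adjusted p = 0.000632 with CBLB502, and 2.73 ± 0.51, adjusted p = 0.000761 without (edgeR quasi-likelihood test, Benjamini-Hochberg adjustment, as for each adjusted p below). Below, a value with ± beside an adjusted p is a log2 fold change with its standard error. Mcm6, the most abundant ring subunit by FPKM, had 14.8, 12.8 and 13.2 CPM with CBLB502 and 15.8, 10.3 and 13.96 CPM without, against 10.4, 12.97 and 10.2 CPM in control, and was not called. Cdt1, which helps to load the ring, was not called either. It had 6.07, 8.4 and 9.76 CPM with CBLB502 and 6.89, 6.7 and 9.51 CPM without, against 5.81, 4.94 and 4.58 CPM in control. Mcm2, Cdc6 (a loading factor), Gins1 and Gins2 (GINS subunits) did not pass the test in either comparison. The groups overlapped in Gins2, which varied widely between replicates, with 8.84, 0.325 and 3.68 CPM at 6 Gy 24 h and 5.3, 0.108 and 0.133 CPM in control.

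Of the 8 polymerase, clamp and chromatin assembly genes, Uhrf1 was called higher in both groups. UHRF1 brings the maintenance methyltransferase to newly copied DNA. Its levels were 6.11, 2.17 and 3.78 CPM with CBLB502 and 3.93, 0.783 and 2.77 CPM with 6 Gy alone, against 0.280, 0.364 and 0.653 CPM in control. The log2 fold changes were 3.21 ± 0.56, adjusted p = 0.000395 with CBLB502, and 2.53 ± 0.55, adjusted p = 0.0028 without. Replicate 2 of 6 Gy at 24 h was only just above the highest control. Prim1, the primase subunit that makes RNA primers, was called higher with CBLB502 (2.43 ± 0.76, adjusted p = 0.0246) and was not called with 6 Gy alone (1.87 ± 0.75, adjusted p = 0.0856). Pcna, the clamp itself, had 50.2, 42.1 and 44.97 CPM with CBLB502 and 48.1, 40.9 and 49.97 CPM with 6 Gy alone, against 29.3, 32.5 and 31.7 CPM in control. The groups did not overlap, but Pcna missed the threshold in both (adjusted p = 0.0548 with CBLB502 and 0.0543 without). Slbp, which binds the stem-loop of histone mRNAs, had 12.2, 15.1 and 14.4 CPM with CBLB502 and 13.3, 12.1 and 15.02 CPM without, against 11.6, 10.5 and 14.96 CPM in control, and the groups overlapped. Pola1 and Lig1 (polymerase alpha and DNA ligase 1), Fen1 (flap nuclease) and Chaf1a (chromatin assembly) were not called.

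In nucleotide supply, 4 of 5 genes were called higher with CBLB502 and 3 of 5 without. Dut, which removes dUTP and so keeps uracil out of DNA, had 5.77, 2.47 and 4.28 CPM with CBLB502 and 5.08, 2.13 and 3.12 CPM with 6 Gy alone, against 0.171, 0.647 and 0.712 CPM in control. All 6 values were above control, with log2 fold changes of 3.03 ± 0.54, adjusted p = 0.000455 with CBLB502, and 2.75 ± 0.53, adjusted p = 0.00115 without. The thymidylate synthase gene Tyms (1.97 ± 0.46, adjusted p = 0.00377 with CBLB502; 1.49 ± 0.45, adjusted p = 0.0252 without) and Rrm1, the large subunit of ribonucleotide reductase, were called in both groups. Rrm2, the small subunit, was called with CBLB502 (2.47 ± 0.76, adjusted p = 0.0237) and missed the threshold with 6 Gy alone (1.77 ± 0.75, adjusted p = 0.104). Tk1, thymidine kinase 1, was not called.

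Among the 8 cyclins and kinases, Plk1 was called in both groups, and Ccna2 (cyclin A2) and Ccnb1 (cyclin B1) in the group with CBLB502. Plk1, a kinase of mitotic entry and spindle assembly, had 8.24, 6.54 and 8.82 CPM with CBLB502 and 7.82, 4.78 and 6.74 CPM with 6 Gy alone, against 2.49, 2.64 and 2.06 CPM in control. The 6 values lay clear of control, with log2 fold changes of 1.71 ± 0.33, adjusted p = 0.000808 with CBLB502, and 1.43 ± 0.33, adjusted p = 0.00408 without. Ccnb1 had 3.42, 1.55 and 3.17 CPM with CBLB502 and 2.39, 0.699 and 1.37 CPM with 6 Gy alone, against 0.295, 0 and 0.282 CPM in control. Its log2 fold change was 3.82 ± 1.28, adjusted p = 0.0357 with CBLB502, and 2.95 ± 1.24, adjusted p = 0.102 without. Ccne1 (cyclin E1), Ccne2 (cyclin E2), Ccnb2 (cyclin B2), Cdk1 and Aurka (Aurora kinase A) were not called in either comparison.

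Of the 7 checkpoint and exit genes, Bub1b (a spindle checkpoint protein) and Ube2c were called in both groups, and Aurkb (Aurora kinase B) in the group with CBLB502. Ube2c, the ubiquitin-conjugating enzyme of the ligase that ends mitosis, had 9.85, 3.69 and 8.35 CPM with CBLB502 and 5.65, 1.84 and 4.92 CPM with 6 Gy alone, against 0.839, 0.485 and 1.5 CPM in control. All 6 values exceeded the highest control, and the log2 fold changes were 2.96 ± 0.57, adjusted p = 0.00086 with CBLB502, and 2.14 ± 0.56, adjusted p = 0.00979 without. Birc5 (survivin, a partner of Aurora kinase B) had 7.54, 5.14 and 6.96 CPM with CBLB502 and 7.79, 5.72 and 7.0 CPM without, against 6.98, 6.16 and 8.36 CPM in control, and did not pass the test. Bub1 and Ttk (checkpoint kinases) and Cdc20 (activator of the exit ligase) were not called.

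Of the 10 kinetochore, spindle and chromatin genes, Top2a was called in both groups, and Cenpm and Nusap1 in the group with CBLB502. Top2a, the topoisomerase that untangles sister chromatids, had 13.2, 4.61 and 11.3 CPM with CBLB502 and 9.99, 3.0 and 8.16 CPM with 6 Gy alone, against 1.62, 1.83 and 3.37 CPM in control. Its log2 fold change was 2.1 ± 0.52, adjusted p = 0.00583 with CBLB502, and 1.63 ± 0.51, adjusted p = 0.0292 without, although replicate 2 of 6 Gy alone fell inside the control range. Mki67, the gene of the Ki-67 antigen used to stain dividing cells, had 19.2, 7.44 and 13.7 CPM with CBLB502 and 14.96, 4.02 and 9.14 CPM with 6 Gy alone, against 5.63, 3.1 and 9.02 CPM in control. The ranges overlapped and Mki67 was not called (1.19 ± 0.57, adjusted p = 0.139 with CBLB502; 0.66 ± 0.56, adjusted p = 0.449 without). Cenpe and Cenpf (kinetochore proteins), Kif11 and Kif20a (motors), Tpx2 and Hmmr (spindle assembly factors) were not called.

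**Figure D2:**
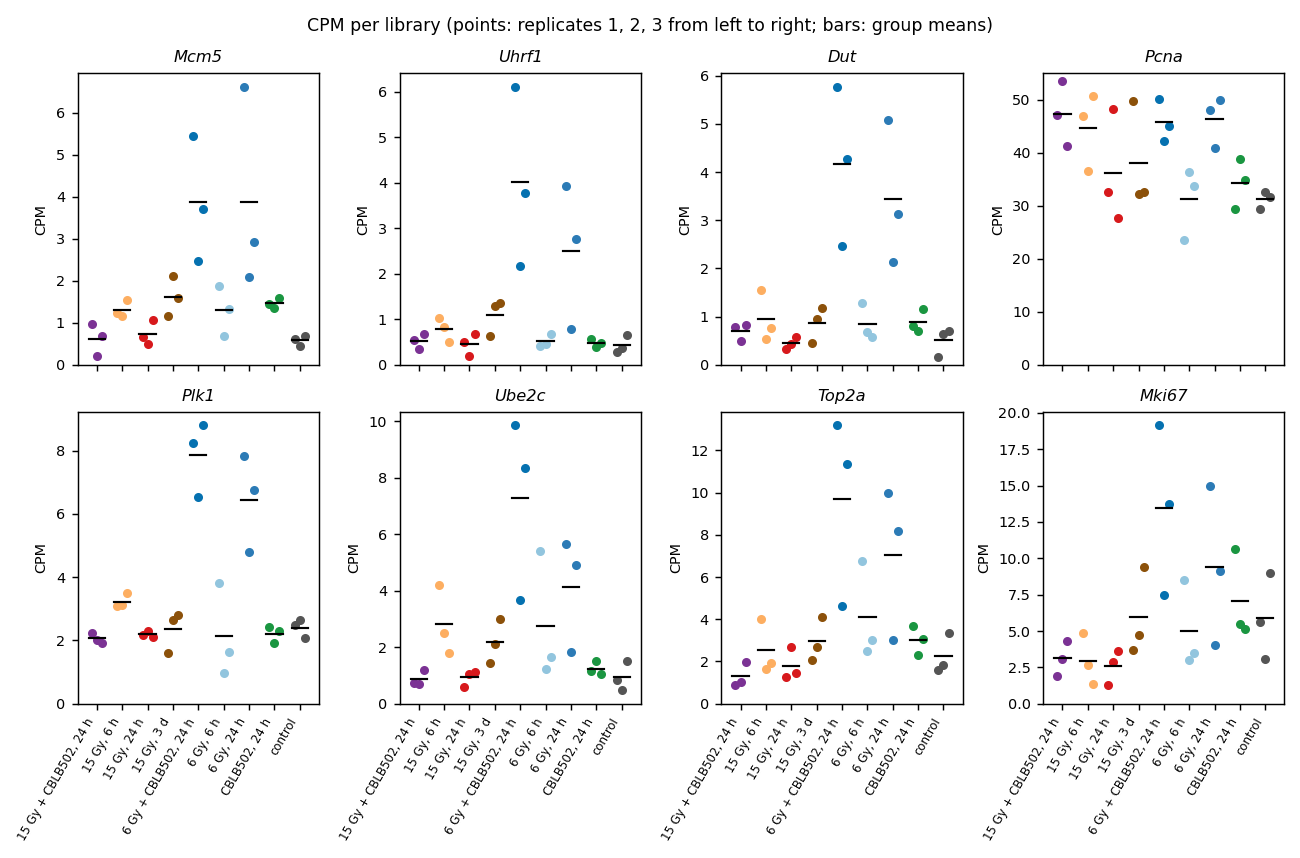
CPM in each library for 8 members in the 9 groups, with control at the right; points are replicates 1, 2 and 3 and bars are group means. Plk1 stood at 6.54 to 8.82 CPM with CBLB502 and 6 Gy against 2.06 to 2.64 CPM in control, while Pcna and Mki67 missed the threshold; replicate 2 of 6 Gy at 24 h was the lowest of its group in each of these genes.

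The 2 groups of 6 Gy at 24 h shared an order among replicates, though replicate numbers are not known to pair them. Mki67, Top2a, Uhrf1 and Mcm5 were lowest in replicate 2 and highest in replicate 1 in both groups. Crypt and Paneth markers were also lowest in replicate 2 of both groups, but their highest library was not always replicate 1. Olfm4, a marker of crypt stem cells, had 23.5, 10.1 and 21.7 CPM with CBLB502 and 27.4, 3.01 and 12.5 CPM without. In control it had 1.79, 0.459 and 6.59 CPM. Olfm4 was called in neither comparison (adjusted p = 0.123 with CBLB502 and 0.192 without). Replicate 2 of 6 Gy alone lay inside its control range. The 10 crypt stem cell genes summed to 99.1, 58.7 and 99.3 CPM with CBLB502 and to 103, 37.0 and 58.1 CPM without, against 48.4 to 54.4 CPM in control, with Ascl2 and Tnfrsf19 at 0 in control. Of these 10 genes 4 were called higher with CBLB502 and 2 without. Ascl2, a stem cell transcription factor with 0 counts in control, was at least 72.8-fold higher with CBLB502 and at least 55.9-fold higher without. The 9 Paneth cell genes summed to 741, 382 and 1135 CPM with CBLB502 and to 985, 202 and 460 CPM without, against 123 to 173 CPM in control, with none at 0, and 5 were called higher with CBLB502 and 4 without. Of the 15 enterocyte genes 10 were called lower and 1 higher with CBLB502, and 11 lower and 1 higher without. The 11 B cell and germinal centre genes, which could bring dividing lymphocytes, summed to 7.71 to 10.4 CPM with CBLB502 and to 6.16 to 7.64 CPM without, against 4.74 to 12.0 CPM in control, and 0 of 10 tested were called in either comparison. Of 9 fibroblast genes tested 6 were called higher with CBLB502 and 5 without, and of 9 smooth muscle genes 2 with CBLB502 and 5 without. The 10 listed fibroblast genes summed to 260 to 377 CPM with CBLB502 and 280 to 386 CPM without. In control their sum was 308 to 330 CPM, inside both ranges. The smooth muscle genes summed to 147 to 204 CPM with CBLB502 and 190 to 276 CPM without, against 112 to 153 CPM in control. The part of these cell types and of the pancreatic transcripts in the members' levels was not tested.

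Without replicate 2 of 6 Gy at 24 h, the library with the pancreatic sum of 7990 CPM, 16 members were called higher in place of 12. The count was 6 without replicate 1, and 7 without control replicate 1 and 5 without control replicate 2. With CBLB502 and 6 Gy the count stayed between 14 and 20 as each library was left out.

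Some genes of these pathways outside the 48 were also called higher. Of 44 other S phase genes, 15 were called higher (34.1%) and 0 lower with CBLB502 and 6 Gy, where 11.2% of all genes were higher, and 9 were called higher (20.45%) and 0 lower with 6 Gy alone, where 9.0% of all genes were higher. Of 56 other mitosis genes 17 were called higher (30.4%) and 1 lower with CBLB502. Without CBLB502, 7 were called higher (12.5%) and 0 lower, which is near the 9.0% of all genes. Pold1, the catalytic subunit of polymerase delta, rose in both groups (2.0 ± 0.35, adjusted p = 0.00039 with CBLB502; 1.76 ± 0.35, adjusted p = 0.00133 without). So did Dnmt1, the maintenance methyltransferase (1.74 ± 0.31, adjusted p = 0.000416 with CBLB502; 1.56 ± 0.31, adjusted p = 0.00121 without), and Cenpa, the centromeric histone (2.12 ± 0.40, adjusted p = 0.000757 with CBLB502; 1.76 ± 0.40, adjusted p = 0.00381 without). Pttg1, the securin gene, was the 1 mitosis gene called lower with CBLB502 (-0.65 ± 0.21, adjusted p = 0.0306). Myc was called higher in both (2.87 ± 0.66, adjusted p = 0.00339 with CBLB502; 2.72 ± 0.66, adjusted p = 0.00623 without), and Cdkn1a, which encodes the CDK inhibitor p21, was called lower in both (-0.97 ± 0.18, adjusted p = 0.000804 with CBLB502; -0.85 ± 0.18, adjusted p = 0.0027 without). Cdkn1a was also called lower than control in 15 Gy with CBLB502 (-0.68 ± 0.18, adjusted p = 0.0228). In that group 1 of the 48 members was called higher and 1 lower.

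After 6 Gy no member passed the test for CBLB502. Against 6 Gy alone at 24 h, 0 of the 48 members were called with CBLB502, and 0 of 20117 genes were called in all (0%). Without adjustment 0 members had p under 0.05, and DESeq2 and limma also called 0. The log2 fold change was above 0 for 41 members, with a median of 0.39 against 0.01 over all genes. The median was 0.15 without replicate 2 of 6 Gy and 0.17 without replicate 1 of 6 Gy with CBLB502, each with 33 members above 0, and 0.75 without replicate 1 of 6 Gy. For Mki67 it was 0.52, with a 95% interval of -0.58 to 1.62, and for Ube2c 0.82, with a 95% interval of -0.22 to 1.85. Each interval holds 0 and also values above 1, so the test does not show that the groups are alike.

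At 24 h after 15 Gy no member passed the test against control. With 15 Gy alone 0 of 48 were called, where 1.05% of all genes were called higher and 0.840% lower. Without adjustment 6 members had p under 0.05, DESeq2 called 1 lower, and limma called 1 on log2(FPKM + 1) and 0 on log2(FPKM + 0.1). The median log2 fold change was -0.21 against 0.03 over all genes, and 35 of the 48 members had a value at or below 0. Without control replicate 3 the median was -0.05 and 24 of 48 members were above 0, while it was -0.34 without control replicate 2 and -0.42 without replicate 3 of 15 Gy 24 h. Mki67 had 1.3, 2.88 and 3.61 CPM at 15 Gy 24 h against 5.63, 3.1 and 9.02 CPM in control, and the ranges overlapped (-1.19 ± 0.57, adjusted p = 0.292). Birc5 came nearest to the threshold, with 1.43, 3.24 and 4.4 CPM at 15 Gy 24 h against 6.98, 6.16 and 8.36 CPM in control (-1.25 ± 0.38, adjusted p = 0.0924). Cenpm, a kinetochore subunit, had 0 counts in all 3 libraries at 15 Gy 24 h and only 4 counts in control.

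With CBLB502 before 15 Gy, 1 member was called higher and 1 lower against control (2.08% each). Of all genes, 4.50% were called higher and 3.92% lower, so both shares of the members were below those. Mcm2, a ring subunit, had 3.92, 8.61 and 7.62 CPM with CBLB502 against 2.56, 2.66 and 2.77 CPM in control (1.33 ± 0.38, adjusted p = 0.0302). Birc5 had 2.39, 1.7 and 2.56 CPM with CBLB502 against 6.98, 6.16 and 8.36 CPM in control (-1.69 ± 0.39, adjusted p = 0.0085). All 3 values lay above control for Mcm2 and below it for Birc5. The count of 2 became 1 when only the 6 libraries compared were fitted, and also without any one control library or without replicate 2 or 3 of the treated group.

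The direct test of CBLB502 at 15 Gy gave no call among the members. Against 15 Gy alone, 0 of 48 passed, and 1 of 20117 genes was called in all (0.00497%); 2 members had an unadjusted p under 0.05, and DESeq2 and limma called 0. Those 2 are Mcm2 (1.1, with a 95% interval of 0.36 to 1.83) and Mcm6 (0.62, with a 95% interval of 0.13 to 1.11), given as log2 fold changes. Mki67 had 1.91, 3.1 and 4.33 CPM with CBLB502 against 1.3, 2.88 and 3.61 CPM with 15 Gy alone (0.26, with a 95% interval of -0.85 to 1.38). For Plk1 the values were 2.25, 2.03 and 1.93 CPM with CBLB502 and 2.18, 2.3 and 2.11 CPM without (-0.09, with a 95% interval of -0.72 to 0.55), so that a rise or fall beyond those bounds is outside the interval. Whether CBLB502 acted differently with and without 15 Gy was tested as an interaction. It called 0 members, against 0.0845% higher and 0.0348% lower of all genes, with 5 at an unadjusted p under 0.05, while DESeq2 called 1 and limma 0. The log2 interaction of Ccne2 came nearest (2.52 ± 0.52, adjusted p = 0.0585).

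With CBLB502 alone at 24 h, 2 members were called against control, 1 higher and 1 lower (2.08% each). Of all genes, 0.984% were called higher and 1.36% lower. Rrm2 had 4.02, 30.9 and 5.51 CPM with CBLB502 against 0.560, 0.769 and 1.35 CPM in control (3.91 ± 0.81, adjusted p = 0.0111). All 3 treated values were above control, with replicate 2 far above the other two. Ccne2, the cyclin that partners CDK2 at the start of S phase, had 2.78, 2.62 and 3.21 CPM with CBLB502 against 15.5, 12.4 and 5.34 CPM in control (-1.95 ± 0.38, adjusted p = 0.00732), and all 3 treated values were below control. Mki67 was not called, with 10.6, 5.51 and 5.15 CPM with CBLB502 against 5.63, 3.1 and 9.02 CPM in control. The count of 2 became 0 when the 6 libraries were fitted alone, without control replicate 1, or without replicate 2 of CBLB502, and 1 without control replicate 2.

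**Figure D3:**
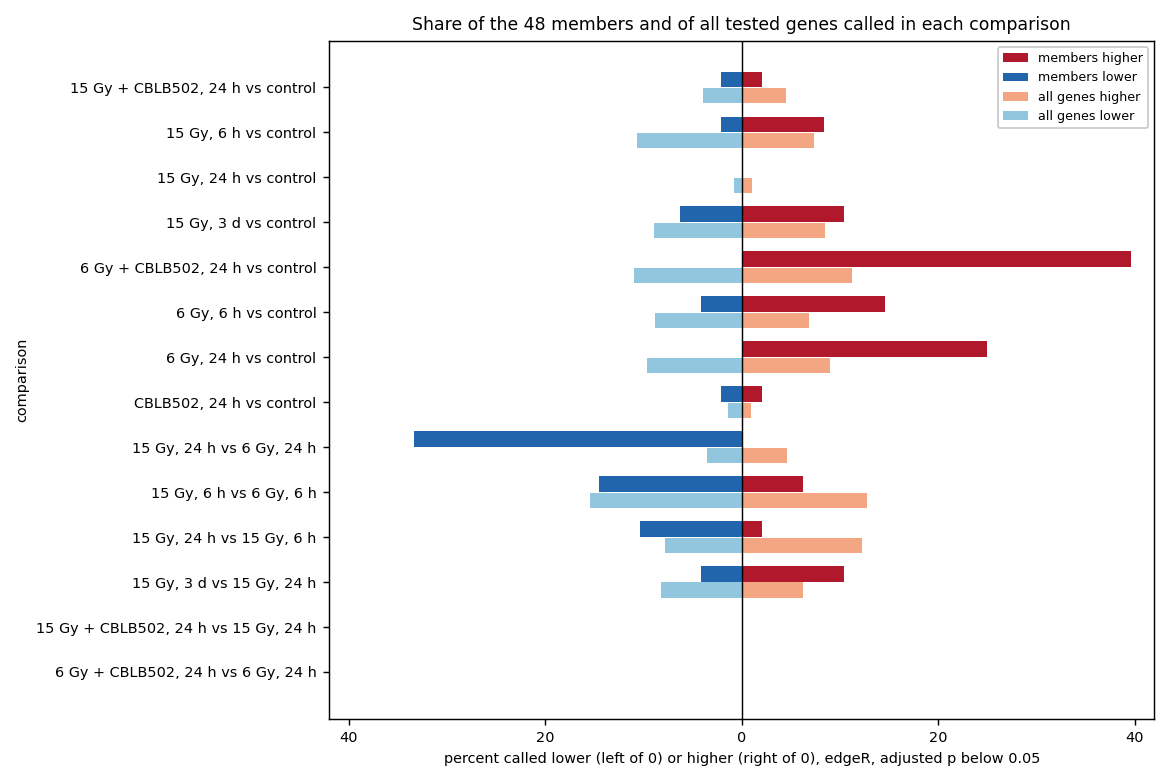
Percent of the 48 members (dark red and dark blue bars) and of all 20117 genes tested (pale bars) called higher (right of 0) or lower (left of 0) in 14 comparisons of 2 groups. The longest bars are those of 19 and 12 members higher at 6 Gy 24 h with and without CBLB502, against control, and of 16 members lower at 15 Gy against 6 Gy at 24 h; in the other comparisons the members' bars reach at most 14.6%.

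At 24 h after 15 Gy, 16 of the 48 were called lower than at 24 h after 6 Gy and 0 higher, where 3.52% of all genes were called lower and 4.61% higher. They are 8 replication genes (Mcm3, Mcm4, Mcm5, Mcm6, Uhrf1, Tyms, Dut and Ccna2) and 8 mitosis genes (Ccnb2, Plk1, Bub1b, Ube2c, Aurkb, Cenpe, Cenpm and Top2a). The median log2 fold change was -1.77 for the members and -0.07 over all genes. For the 22 mitosis genes it was -2.30, and all 22 had values below 0. In 25 members all 3 libraries at 15 Gy lay below all 3 at 6 Gy, against 15.8% of all genes.

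Plk1 had 2.18, 2.3 and 2.11 CPM at 15 Gy against 7.82, 4.78 and 6.74 CPM at 6 Gy (-1.55 ± 0.33, adjusted p = 0.00683). Dut had 0.335, 0.437 and 0.576 CPM at 15 Gy against 5.08, 2.13 and 3.12 CPM at 6 Gy (-2.94 ± 0.54, adjusted p = 0.00306). For Mcm5 the values were 0.656, 0.501 and 1.08 CPM at 15 Gy and 6.62, 2.08 and 2.92 CPM at 6 Gy (-2.38 ± 0.50, adjusted p = 0.00645). In these 3 genes the groups did not overlap. Top2a had 1.26, 2.69 and 1.46 CPM at 15 Gy against 9.99, 3.0 and 8.16 CPM at 6 Gy (-1.97 ± 0.52, adjusted p = 0.0235). Ube2c had 0.589, 1.07 and 1.14 CPM at 15 Gy against 5.65, 1.84 and 4.92 CPM at 6 Gy (-2.15 ± 0.55, adjusted p = 0.0212). In Mki67, with 1.3, 2.88 and 3.61 CPM at 15 Gy and 14.96, 4.02 and 9.14 CPM at 6 Gy, the test missed the threshold (-1.85 ± 0.58, adjusted p = 0.052). Cenpm had 0 counts at 15 Gy against 0.382, 0 and 0.323 CPM at 6 Gy, and was at least 17.1-fold lower, with 3 counts over the group set in place of 0. Pcna was not called, with 32.6, 48.3 and 27.7 CPM at 15 Gy against 48.1, 40.9 and 49.97 CPM at 6 Gy (-0.36 ± 0.20, adjusted p = 0.303).

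Of the other mitosis genes 9 of 56 were called lower at 15 Gy and 0 higher, and of the other S phase genes 3 of 44 lower and 0 higher. Racgap1, which acts in cytokinesis, fell at 15 Gy (-3.06 ± 0.55, adjusted p = 0.00268), as did Cenpa (-2.45 ± 0.41, adjusted p = 0.00173) and Dnmt1 (-1.6 ± 0.31, adjusted p = 0.00395). The count of 16 depended on single libraries: 2 members were called without replicate 1 of 6 Gy and 5 without replicate 1 of 15 Gy. It was 8 without replicate 3 of 6 Gy and 19 without replicate 2 of 6 Gy. When the 6 libraries were fitted alone, 2 members were called. In that fit 0.4% of all genes were called higher and 0.5% lower, against 4.6% and 3.5% in the main fit. The members' median log2 fold change there was -1.76, with 3 of 48 above 0. Without replicate 1 of 6 Gy it was -1.37, with 4 of 48 above 0. All 16 pancreatic genes were called lower at 15 Gy, 9 of 15 enterocyte genes higher, and 0 of 9 Paneth genes in either direction, and their part in the members' difference was not tested.

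**Figure D4:**
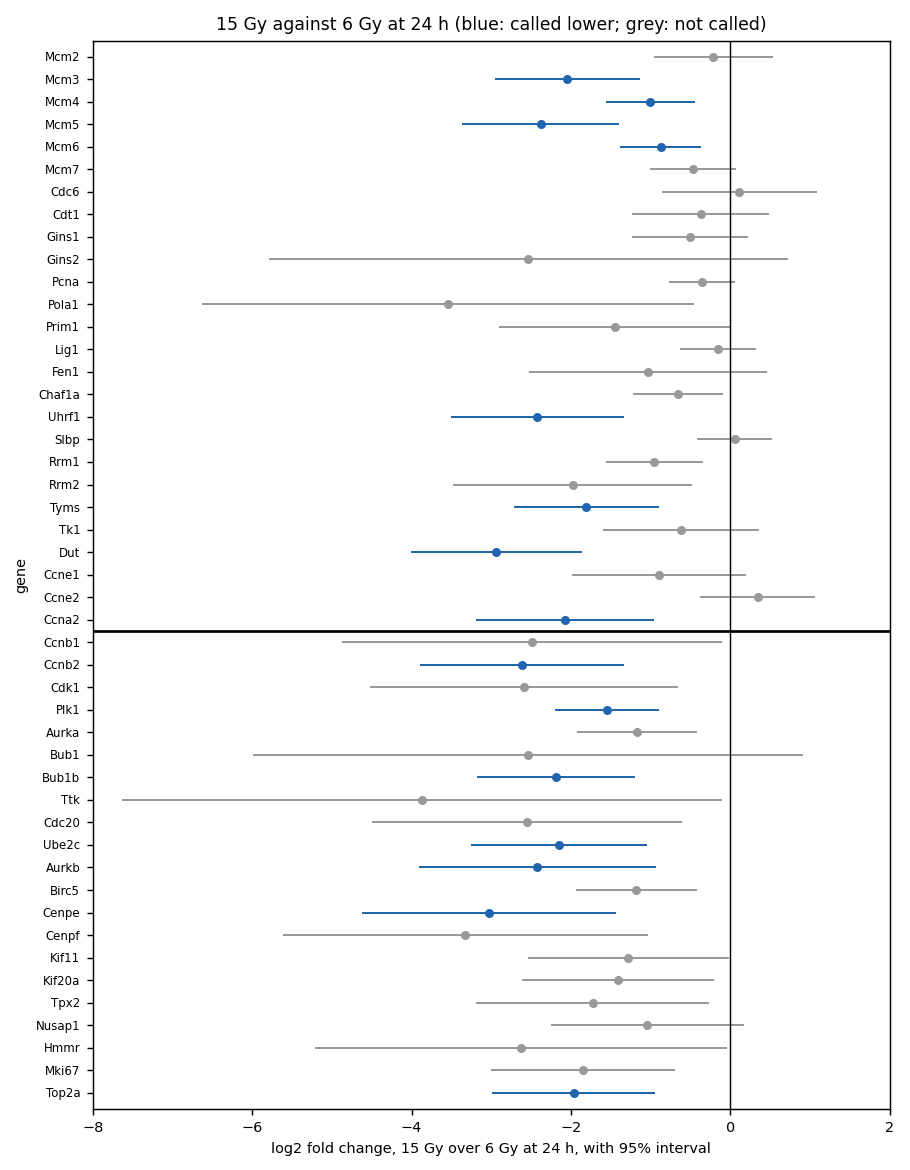
Log2 fold change of 15 Gy over 6 Gy at 24 h with its 95% interval for 47 members, replication genes above the thick line and mitosis genes below it; Cenpm, at 0 counts in 15 Gy, is left out. Blue genes were called lower (15 of the 16 called) and grey genes were not called; every mitosis gene lies left of 0.

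At 6 h members were called in both directions at each dose. At 6 Gy, 7 were called higher and 2 lower than control, where 6.86% of all genes were called higher and 8.83% lower, and the median log2 fold change was 0.55 against 0.06 over all genes. The median rested on single libraries: it was 0.12 without replicate 1 of 6 Gy 6 h, where 28 members in place of 37 were above 0, and 0.26 without control replicate 2. Cenpm had 13.5, 15.03 and 12.9 CPM at 6 Gy 6 h against 0, 0.0539 and 0 CPM in control (9.38 ± 1.38, adjusted p = 5.85e-05). Nusap1, a microtubule-bundling protein of the spindle, had 10.4, 16.9 and 13.3 CPM at 6 Gy 6 h against 0.280, 0.162 and 0.816 CPM in control (5.01 ± 0.70, adjusted p = 2.08e-05). In these 2 genes the 3 libraries of 6 Gy at 6 h were above each of the other 24. Plk1, of the same phase, had 3.8, 0.968 and 1.63 CPM at 6 Gy 6 h against 2.49, 2.64 and 2.06 CPM in control and was not called. Mki67 had 8.53, 3.04 and 3.49 CPM against 5.63, 3.1 and 9.02 CPM in control and was not called either.

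Rrm2 had 6.75, 6.45 and 7.9 CPM at 6 Gy 6 h against 0.560, 0.769 and 1.35 CPM in control (2.98 ± 0.78, adjusted p = 0.01). Its partner Rrm1 (1.32 ± 0.31, adjusted p = 0.00401) and the ring subunit Mcm4 (1.2 ± 0.28, adjusted p = 0.00389) rose as well. Slbp had 20.8, 16.9 and 24.05 CPM at 6 Gy 6 h against 11.6, 10.5 and 14.96 CPM in control (0.74 ± 0.24, adjusted p = 0.0358). The genes called lower were Mcm6, with 3.43, 3.23 and 4.46 CPM at 6 Gy 6 h against 10.4, 12.97 and 10.2 CPM in control (-1.6 ± 0.26, adjusted p = 0.000108), and Birc5, with 3.48, 1.8 and 0.817 CPM against 6.98, 6.16 and 8.36 CPM in control (-1.82 ± 0.39, adjusted p = 0.00199). Thus Mcm4 and Mcm6, subunits of 1 ring, were called in opposite directions.

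Other S phase genes were also called in both directions at 6 Gy 6 h, 5 higher and 2 lower of 44. Rfc1, the large subunit of the clamp loader, rose (1.5 ± 0.20, adjusted p = 9.38e-06). Of the other mitosis genes 3 of 56 were called higher (5.36%) and 1 lower, where 6.86% of all genes were higher, and Psrc1, a microtubule-associated protein and known p53 target, had the smallest adjusted p (6.31 ± 0.89, adjusted p = 2.5e-05). Psrc1 was called higher than control in each of the 7 irradiated groups. Of the 15 enterocyte genes 9 were called lower at 6 Gy 6 h, and 0 of 9 Paneth genes were called. The Paneth genes summed to 336, 31.2 and 65.1 CPM at 6 Gy 6 h against 173, 123 and 153 CPM in control, and replicate 1 of 6 Gy 6 h, the highest of these, was also the highest of its group in Mki67, Plk1, Top2a, Ube2c and Ccnb1. The part of the Paneth transcripts in those levels was not tested.

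At 15 Gy 6 h, 4 members were called higher and 1 lower than control, against 7.38% higher and 10.7% lower among all genes. These are 8.33% and 2.08% of the members, so the share higher was near that of all genes and the share lower was below it. The median log2 fold change was 0.46 against -0.03 over all genes, and 35 of the 48 members were above 0. As single libraries were left out the median ran from 0.28 (without replicate 1 of 15 Gy) to 0.65 (without control replicate 3). Rrm2 had 3.18, 3.16 and 7.37 CPM at 15 Gy 6 h against 0.560, 0.769 and 1.35 CPM in control (2.35 ± 0.76, adjusted p = 0.0354). Cenpm (4.7 ± 1.3, adjusted p = 0.0157), Ube2c (1.59 ± 0.55, adjusted p = 0.0472) and Lig1 (0.69 ± 0.24, adjusted p = 0.0462) were the others called higher. Ccne2 had 4.91, 4.42 and 4.72 CPM at 15 Gy 6 h against 15.5, 12.4 and 5.34 CPM in control (-1.24 ± 0.37, adjusted p = 0.0208), with all 3 values below control. The count of 5 became 3 with median-ratio scaling or with no filter on low counts, 1 without control replicate 1 or 2, and 2 without replicate 1 or 3 of 15 Gy.

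Against 6 Gy at the same 6 h, 15 Gy had 3 members higher and 7 lower, where 12.7% of all genes were called higher and 15.5% lower. These are 6.25% and 14.6% of the members, so the share lower was near that of all genes and the share higher was below it. Mcm6 (1.46 ± 0.26, adjusted p = 0.000132), Birc5 (2.0 ± 0.39, adjusted p = 0.00042) and Mcm2 (1.61 ± 0.39, adjusted p = 0.00278) were higher at 15 Gy. Nusap1 had 1.52, 0.760 and 1.15 CPM at 15 Gy against 10.4, 16.9 and 13.3 CPM at 6 Gy (-3.57 ± 0.65, adjusted p = 0.00019). Cenpm had 0.653, 0.520 and 0.435 CPM at 15 Gy against 13.5, 15.03 and 12.9 CPM at 6 Gy (-4.68 ± 1.03, adjusted p = 0.0015). Ccne2 had 4.91, 4.42 and 4.72 CPM at 15 Gy against 18.5, 22.5 and 14.2 CPM at 6 Gy (-1.97 ± 0.37, adjusted p = 0.000307). The groups did not overlap in any of these 3 genes, and Slbp, Mcm4, Rrm1 and Bub1b were also called lower. Of the 15 enterocyte genes 10 were called higher at 15 Gy and 0 lower, and their sum was 150935 to 177493 CPM at 15 Gy 6 h against 63227 to 69143 CPM at 6 Gy 6 h, with none at 0. Of the 16 pancreatic genes 3 were called lower at 15 Gy. The part of these transcripts in the members' difference was not tested.

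**Figure D5:**
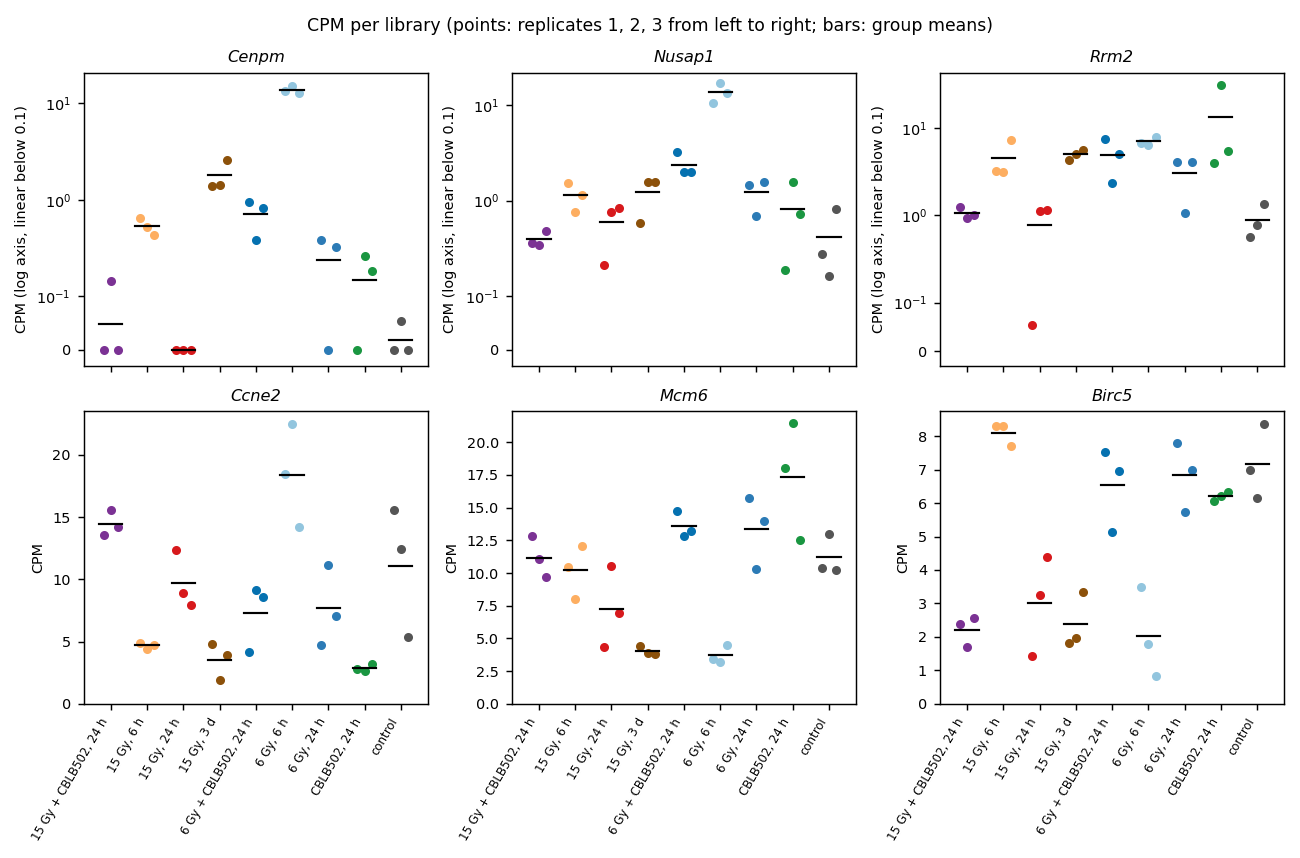
CPM in each library for 6 members whose pattern departs from that of most members, control at the right; points are replicates 1, 2 and 3 and bars group means, on a log axis (linear below 0.1) for Cenpm, Nusap1 and Rrm2 and on a linear axis from 0 for the others. Cenpm reached 12.9 to 15.0 CPM at 6 Gy 6 h and was at 0 in all 3 libraries at 15 Gy 24 h, and Mcm6 and Birc5 were low at 6 Gy 6 h and 15 Gy 3 d.

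After 15 Gy, time was followed over 6 h, 24 h and 3 d. At 24 h, 1 member was higher (2.08%) and 5 lower (10.4%) than at 6 h, where 12.2% of all genes were called higher and 7.86% lower. Ccne2 was the one higher (1.06 ± 0.37, adjusted p = 0.0444). Birc5 had 1.43, 3.24 and 4.4 CPM at 24 h against 8.31, 8.3 and 7.71 CPM at 6 h (-1.42 ± 0.38, adjusted p = 0.00981). Rrm2 had 0.0535, 1.12 and 1.15 CPM at 24 h against 3.18, 3.16 and 7.37 CPM at 6 h (-2.56 ± 0.77, adjusted p = 0.0205). Lig1 (-0.74 ± 0.24, adjusted p = 0.0295) and Ube2c (-1.6 ± 0.55, adjusted p = 0.0413) were lower as well, and Cenpm, at 0 counts at 24 h, was at least 39.0-fold lower than at 6 h. In 18 members all 3 libraries at 24 h lay below all 3 at 6 h, where 14.2% of all genes did so. The count of 6 called members became 2 when the 6 libraries were fitted alone, and 3 without replicate 1 at 24 h or replicate 3 at 6 h.

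At 3 d after 15 Gy, 5 members were higher (10.4%) and 2 lower (4.17%) than at 24 h. Of all genes, 6.27% were called higher and 8.18% lower. Rrm2 had 4.3, 5.04 and 5.57 CPM at 3 d against 0.0535, 1.12 and 1.15 CPM at 24 h (2.68 ± 0.77, adjusted p = 0.0212). Cenpm had 1.39, 1.44 and 2.59 CPM at 3 d, at least 131-fold higher than the 0 counts at 24 h. Mcm4 (0.99 ± 0.28, adjusted p = 0.0166), Tyms (1.42 ± 0.45, adjusted p = 0.0385) and the kinetochore motor gene Cenpe (2.79 ± 0.80, adjusted p = 0.0208) were the others called higher. Ccne2 (-1.46 ± 0.37, adjusted p = 0.00842) and Mcm6 (-0.84 ± 0.25, adjusted p = 0.0265) were lower. The count of 7 became 3 when the 6 libraries were fitted alone or without replicate 2 at 3 d, and 4 without replicate 3 at 3 d or replicate 2 at 24 h.

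Against control, 3 d after 15 Gy had 5 members higher and 3 lower, where 8.43% of all genes were called higher and 8.90% lower. These are 10.4% and 6.25% of the members, near the shares of all genes. Those called higher were Mcm4 (0.95 ± 0.28, adjusted p = 0.0199), Mcm5 (1.48 ± 0.49, adjusted p = 0.0399), Mcm7 (0.91 ± 0.27, adjusted p = 0.0231), Rrm2 (2.47 ± 0.77, adjusted p = 0.0276) and Cenpm (6.44 ± 1.3, adjusted p = 0.00153). Mcm6 had 4.43, 3.92 and 3.81 CPM at 3 d against 10.4, 12.97 and 10.2 CPM in control (-1.47 ± 0.26, adjusted p = 0.000279). Birc5 had 1.8, 1.97 and 3.34 CPM at 3 d against 6.98, 6.16 and 8.36 CPM in control (-1.6 ± 0.38, adjusted p = 0.00557). Ccne2 had 4.77, 1.92 and 3.9 CPM at 3 d against 15.5, 12.4 and 5.34 CPM in control (-1.65 ± 0.37, adjusted p = 0.00313). The 3 genes lay below control in every library, while Mki67, with 3.69, 4.73 and 9.38 CPM at 3 d against 5.63, 3.1 and 9.02 CPM in control, was not called. The count of 8 became 5 without control replicate 1 or replicate 2 or 3 at 3 d, and 4 without control replicate 2.

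Growth regulators that act before S phase were called higher at 3 d. Myc had 11.7, 9.58 and 13.9 CPM at 3 d against 0.420, 0.512 and 0.786 CPM in control (4.35 ± 0.70, adjusted p = 0.000122). Ccnd1, cyclin D1, had 14.5, 18.8 and 30.2 CPM at 3 d against 5.36, 2.87 and 4.38 CPM in control (2.33 ± 0.50, adjusted p = 0.00211). Both were above control in all 3 libraries. The 9 Paneth genes summed to 550 to 1196 CPM at 3 d against 123 to 173 CPM in control, with 5 called higher and none at 0. The 10 crypt stem cell genes summed to 142 to 189 CPM at 3 d against 48.4 to 54.4 CPM in control, with 4 called higher. Olfm4 was not among these, with 0.962, 0.740 and 2.0 CPM at 3 d against 1.79, 0.459 and 6.59 CPM in control, and the 10 T cell genes had 6 called lower. Of the 15 enterocyte genes 7 were called lower and 0 higher at 3 d, with sums of 83227 to 110432 CPM at 3 d against 109742 to 138072 CPM in control. The part of these markers in the members' levels was not tested.

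Over the 14 comparisons of 2 groups and the interaction, 27 of the 48 members were called at least once. The 21 never called are Cdc6, Cdt1, Gins1, Gins2, Pcna, Pola1, Fen1, Chaf1a, Tk1, Ccne1, Cdk1, Aurka, Bub1, Ttk, Cdc20, Cenpf, Kif11, Kif20a, Tpx2, Hmmr and Mki67. Several of these had high means at 6 Gy 24 h with wide spread. Cdk1, the kinase of mitotic entry, had 3.93, 2.1 and 4.0 CPM with CBLB502 and 6 Gy and 3.21, 0.759 and 2.59 CPM with 6 Gy alone, against 0.187, 0.229 and 1.45 CPM in control. Cdc20 had 5.74, 2.32 and 5.48 CPM with CBLB502 and 6 Gy and 4.44, 1.39 and 2.95 CPM with 6 Gy alone, against 0.933, 0.324 and 1.08 CPM in control. In the annotation 22 members overlap another gene, and 10 of them overlap one with a higher mean CPM, among these Mcm7, Plk1, Ccne2, Ccna2, Fen1, Gins2 and Cdc20. Strandedness of the counting is not given in the sources used here, so reads in those overlaps could come from either gene.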

How the data were processed

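Total RNA of mouse intestine was sequenced in 27 libraries. Per the submitters' processing notes HISAT2 2.0, Bowtie 0.12.2 and StringTie 1.3.0 were used, with build mm8. Of 55141 gene IDs also in GENCODE vM21, 51920 had the GRCm38 position of that release, 45 of the 48 members among them, so the positions are taken as GRCm38. Annotation and strand of the counting are not stated in the sources used here. Raw read counts per gene were deposited by the authors and tested as they stand. The authors also deposited FPKM values, used here only for levels between genes and in alternatives (a deposited FPKM of 0.0001 stands for 0). Reads are not independent molecules, so floors of 3 counts cover counting error only.

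Genes were kept by filterByExpr (minimum count 10, minimum total 15), scaled by TMM and fitted over all 27 libraries with 9 group means in edgeR 4.0.16 (R 4.3.3), by the quasi-likelihood test with Benjamini-Hochberg adjustment over 20117 genes. Values after ± are standard errors of the log2 fold change, taken as its size over the square root of F, and 95% intervals are 1.96 standard errors to each side. The steps were tested on simulated data. Alternatives were median-ratio scaling, other filters, limma 3.58.1 on log2(FPKM + 1) or log2(FPKM + 0.1), DESeq2 1.42.0, the compared groups alone, a replicate block, and leaving out libraries. Replicates of a group differed by far more than counting noise; chi-square over its degrees of freedom was 89.4 to 783.

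The members, the gene lists and the tests were chosen with earlier results of these data known. Any member may be named. By rule these include 2 chosen members per class, Top2a, Ccnb1 and Mcm5, and in each comparison up to 4 called members and up to 3 other S phase or mitosis genes per direction with the smallest adjusted p, apart from a result not reported here; further called members are named beside them. The context genes are p53 targets, growth regulators and stem cell markers, and the marker lists cover enterocytes, crypt stem cells, Paneth cells, exocrine pancreas, fibroblasts, smooth muscle, B cells and T cells.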

Additional observations from a re-analysis of the deposited data

How the results depend on the processing

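The counts of called members were recomputed over 15 comparisons, the interaction included. On limma with log2(FPKM + 1), whose scale lifts the 6 Gy libraries at 24 h as a whole, the count was 43 for 6 Gy with CBLB502 and 32 for 6 Gy at 24 h, against control, 34 for 15 Gy over 6 Gy at 24 h, 0 for 15 Gy 6 h, 1 each for 15 Gy 24 h, CBLB502 and 15 Gy 24 h over 6 h, and 3 for 3 d over 24 h. With log2(FPKM + 0.1) it was 42, 37 and 37 in the first 3 of these, and 2 for 15 Gy 6 h. There, 46.2% and 41.0% of all genes were called higher in the first 2, and 27.5% lower in the third. With log2(FPKM + 1) these shares of all genes were 46.3%, 40.7% and 29.7%. With the compared groups alone the counts were 2 for 15 Gy over 6 Gy at 24 h, 2 for 15 Gy 24 h over 6 h, 3 for 3 d over 24 h, 1 for 15 Gy 6 h, 1 for 15 Gy with CBLB502 and 0 for CBLB502. For 15 Gy 6 h the count was 3 with median-ratio scaling, with no filter on low values and without the 6 libraries of 6 Gy at 24 h. The last of these gave 1 for 15 Gy with CBLB502. DESeq2 gave 1 for 15 Gy 24 h. The interaction had 1 call in place of 0 with DESeq2, no filter, the FPKM filter or without those 6 libraries. Shares of all genes moved as well. For 15 Gy over 6 Gy at 24 h, the compared groups alone gave 0.4% higher and 0.5% lower, against 4.6% and 3.5%. For 15 Gy 24 h, DESeq2 gave 2.5% higher and 3.2% lower, against 1% and 0.8%. The cause of these changes was not tested. Leaving out 1 library at a time gave 14 to 20 for 6 Gy with CBLB502, 5 to 16 for 6 Gy 24 h, 2 to 19 for 15 Gy over 6 Gy at 24 h, 7 to 10 for 6 Gy 6 h, 1 to 5 for 15 Gy 6 h, 4 to 8 for 15 Gy 3 d, 0 to 2 for CBLB502, 1 to 2 for 15 Gy with CBLB502, 8 to 11 for 15 Gy over 6 Gy at 6 h, 3 to 4 for 24 h over 6 h, 3 to 8 for 3 d over 24 h and 0 to 1 for the interaction. Of 1061 recomputed values of 70 named genes and comparisons, 949 stayed on their side of the threshold, 112 missed it with the same direction and 0 reversed. Replicate numbers did not pair the libraries: correlations of same-numbered deviations ran from -0.297 to 0.270, and 17 of 42 libraries correlated best with their own number. With the replicate block the count was 21 for 6 Gy with CBLB502 and 5 for 15 Gy 24 h over 6 h, and 15 of 15 counts stayed within 1.5 times. Depth limits the members of few counts most, such as Cenpm.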
